A study of Mus musculus with 6 samples.

Results

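Glucose transport, glycolysis and pentose phosphate genes were examined in the skin of 3 LynDN transgenic mice and 3 wild-type (WT) mice. The list held 39 genes, taken by symbol, and 34 of them had at least 1 probe carrying that symbol alone, out of 18617 named genes on the array. Gpi1, Pfkfb1, Eno1, G6pdx and Pgd had no such probe and are not analysed here. The genes were selected on their function with the log ratios of these same arrays already known, so the genotype ratios below are a description and nothing is supported by them.

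Lyn, a tyrosine kinase of the Src family, relays signals of immune cell receptors, and the series title spells the transgene LynDeltaN. The labels give the tissue as skin. The labels state no age, sex, strain or transgene promoter. Each LynDN mouse shared 2 two-colour arrays with a WT mouse, the dyes exchanged between them, which made 6 arrays in 3 mouse pairs. Pair 1 was LynDN mouse 1 with WT mouse 1, pair 2 was LynDN mouse 2 with WT mouse 3, and pair 3 was LynDN mouse 3 with WT mouse 2. Whole skin mixes many cell types, so fewer cells of a type and less RNA per cell cannot be told apart. The table holds ratios and no levels, so the tissue label could not be set against marker levels.

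Cells take up glucose through facilitated carriers of the Slc2a family or through sodium-driven carriers such as Slc5a1. Hexokinase traps it as glucose 6-phosphate, and glycolysis then makes pyruvate, which leaves the cell as lactate or enters mitochondria through pyruvate dehydrogenase, an enzyme that the Pdk kinases switch off. The pentose phosphate pathway branches off at glucose 6-phosphate and yields NADPH and ribose. Epidermis is known for making much lactate even in air, and the oxygen-regulated factor HIF-1 drives many glycolytic genes.

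Values are deposited log2 ratios between the genotypes, whose numerator is not stated. Positive here means the side of the inflammation-linked alarmin gene S100a9, which had 5.65, 5.35 and 5.61 in pairs 1, 2 and 3. LynDN mice are known for psoriasis-like skin, which makes LynDN over WT the likely direction, but the labels and files do not settle it, and with WT on top every sign below would turn. Across the 22879 rows tested, the 2 arrays of a dye swap correlated at r = 0.0239 in pair 1, against 0.463 and 0.462 in pairs 2 and 3. Genes are not independent replicates there. Pair 1 also stood apart in the Y-linked gene Eif2s3y, with 3.50 in pair 1 against -0.00 and 0.03 in pairs 2 and 3. Kdm5d, also Y-linked, had 1.24, -0.05 and 0.13 in pairs 1, 2 and 3. Xist, the X-inactivation gene, had -1.06, -0.09 and -0.14. By these genes the 2 mice of pair 1 appear to differ in sex, so sex and genotype cannot be told apart within pair 1. Results that rest on pair 1 are therefore given with and without it.

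Most genes of glucose use lay on the positive side by small amounts. Of the 34 genes, 25 had a positive and 9 a negative mean ratio, with a median of 0.14 against -0.01 over all rows. The medians were 0.02, 0.13 and 0.18 in pairs 1, 2 and 3. Means ran from -0.27 for Pfkm to 2.01 for Slc5a1, with a median size of 0.21 against 0.06 over all rows. A size under 0.2 was found for 15 of the 34 genes and 20043 of 22879 rows, and 2 genes reached a size of 1. That size was reached by 0.599% of all rows. Ratios were positive on 6 of 6 arrays for Slc2a1, Slc5a1, Hk2, Pgk1, Pdk1 and Hif1a (6 genes, against 3.72% of all rows) and negative on 6 of 6 for Pdk3 and Taldo1 (2 genes, against 4.31%).

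On the 3 pair values, limma with Benjamini-Hochberg adjustment over all rows called 0 of the 34 genes at an adjusted p under 0.05. It called 0.0175% of all rows as positive and 0% as negative. The smallest adjusted p among the 34 was 0.237. At an unadjusted p under 0.05 there were 14 positive and 4 negative genes, where 5.92% of all rows were positive and 6.41% negative. When all 6 arrays entered the fit and mouse pair was a random block, 2 genes were called as positive and 0 as negative, against 0.603% and 0.459% of all rows. These 2 were Slc5a1 and Hif1a. Since the list was drawn up with these ratios known, nothing is read from these counts.

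**Figure D1:**
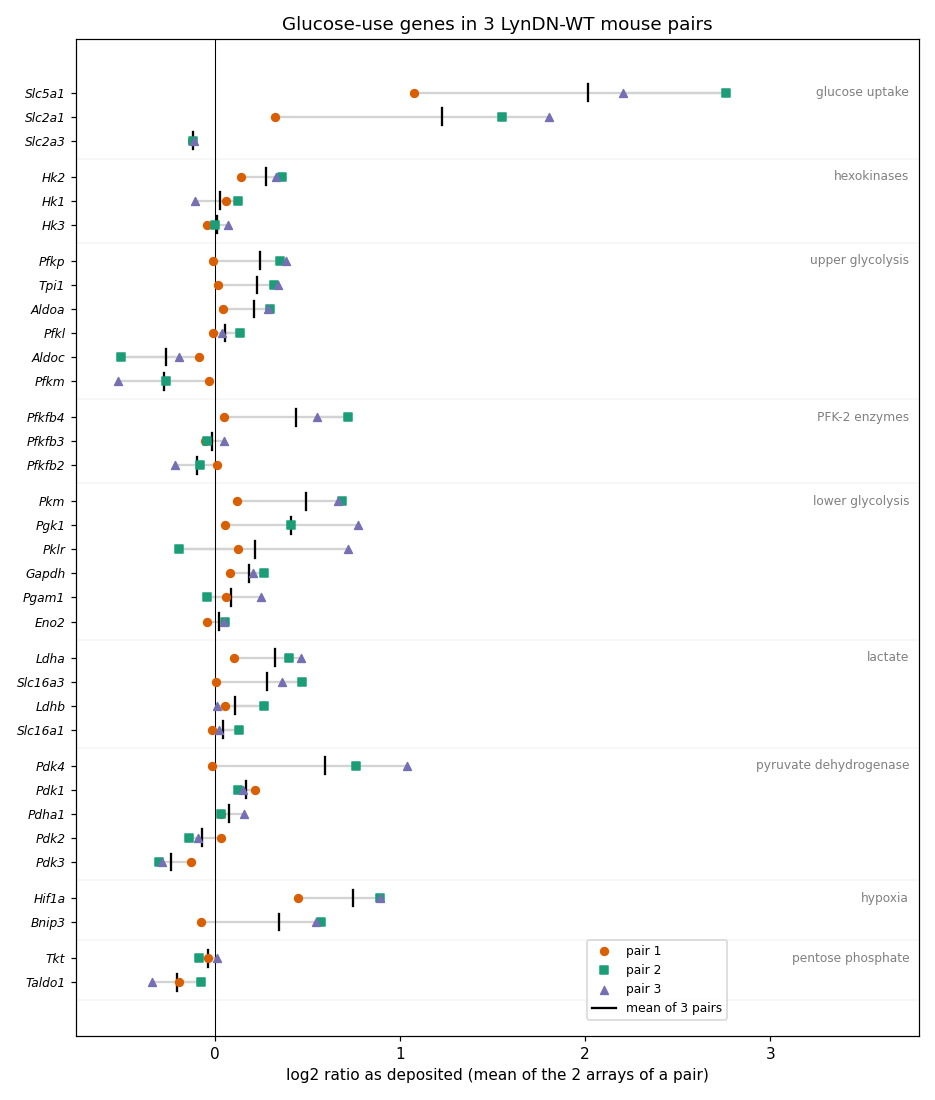
Log2 ratio as deposited of 34 glucose-use genes (horizontal axis) by role, with 1 point per mouse pair, each the mean of 2 arrays, and a bar at the mean of the 3 pairs. Slc5a1 and Slc2a1 lie farthest to the right, at means of 2.01 and 1.23, and pair 1 is the lowest of the 3 pairs for 22 of the 34 genes.

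Among carriers that bring glucose into cells, 2 of 3 had the largest ratios of the whole list. Slc5a1, the sodium-driven glucose carrier SGLT1, gave 0.88 and 1.27 for pair 1, then 2.97 and 2.55 for pair 2 and 2.04 and 2.37 for pair 3, the array with LynDN in Cy5 named first here and in the next genes. All 6 arrays were positive, and pair 1 lay well below the other pairs. The mean was 2.01 ± 0.86 (SD over pairs, n = 3), a 4.04-fold difference, and 2.48 without pair 1. Slc2a1, the carrier GLUT1 of basal keratinocytes, gave 0.21 and 0.43 for pair 1, then 1.38 and 1.72 for pair 2 and 1.75 and 1.86 for pair 3. It too was positive throughout with pair 1 lowest, at a mean of 1.23 ± 0.79 (SD, n = 3), 2.34-fold, or 1.68 without pair 1. Slc2a3, the carrier GLUT3 of neurons and white blood cells, had -0.12, -0.12 and -0.11 by pair and a mean of -0.12 ± 0.01 (SD, n = 3). Its small SD hides the dyes: its arrays averaged -0.33 with LynDN in Cy5 and 0.09 with LynDN in Cy3.

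Both genes listed for the response to low oxygen were positive on average. Hif1a, the oxygen-regulated subunit of HIF-1, gave 0.25 and 0.64 for pair 1, then 0.71 and 1.08 for pair 2 and 0.84 and 0.95 for pair 3. All 6 arrays were positive and pair 1 was lowest, with a mean of 0.74 ± 0.26 (SD, n = 3), 1.67-fold, or 0.89 without pair 1. Bnip3, a mitochondrial protein of mitophagy and a known HIF-1 target, had -0.08, 0.57 and 0.55 in pairs 1, 2 and 3. Its mean of 0.35 ± 0.37 (SD, n = 3) was no larger than its spread between pairs.

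Promoters of Slc5a1, Slc2a1, Hif1a, Pgk1 and Pdk4, the genes picked to be given array by array, are shown because HIF-1 is known to bind DNA at a short core, ACGTG or GCGTG. Each window holds the 250 bases before the RefSeq start on GRCm38.p6, 5′ to 3′ on the strand of the gene. Capitals mark a core on either strand, and cores on opposite strands can overlap, as in the palindromes of Slc5a1 and Hif1a. The windows lie at chr5:33103969-33104218 (+) for Slc5a1, chr4:119108495-119108744 (+) for Slc2a1, chr12:73907617-73907866 (+) for Hif1a, chrX:106186850-106187099 (+) for Pgk1 and chr6:5496279-5496528 (-) for Pdk4.
Slc5a1: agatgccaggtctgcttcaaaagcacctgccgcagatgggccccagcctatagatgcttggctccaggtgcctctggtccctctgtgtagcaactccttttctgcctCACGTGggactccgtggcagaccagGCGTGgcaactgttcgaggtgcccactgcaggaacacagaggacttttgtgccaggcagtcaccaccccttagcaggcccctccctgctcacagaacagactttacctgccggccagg
Slc2a1: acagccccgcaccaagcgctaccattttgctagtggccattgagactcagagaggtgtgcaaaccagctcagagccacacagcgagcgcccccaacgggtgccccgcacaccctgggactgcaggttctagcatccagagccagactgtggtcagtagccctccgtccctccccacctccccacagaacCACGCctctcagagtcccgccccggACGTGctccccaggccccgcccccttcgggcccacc
Hif1a: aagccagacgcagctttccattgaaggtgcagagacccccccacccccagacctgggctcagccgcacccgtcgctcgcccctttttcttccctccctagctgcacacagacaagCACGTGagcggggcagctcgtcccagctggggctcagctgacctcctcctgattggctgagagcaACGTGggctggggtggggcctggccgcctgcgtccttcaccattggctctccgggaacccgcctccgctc
Pgk1: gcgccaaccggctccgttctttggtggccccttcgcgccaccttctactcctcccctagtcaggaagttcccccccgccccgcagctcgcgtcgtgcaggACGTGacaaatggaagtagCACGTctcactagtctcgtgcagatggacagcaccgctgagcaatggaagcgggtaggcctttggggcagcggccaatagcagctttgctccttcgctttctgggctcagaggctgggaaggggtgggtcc
Pdk4: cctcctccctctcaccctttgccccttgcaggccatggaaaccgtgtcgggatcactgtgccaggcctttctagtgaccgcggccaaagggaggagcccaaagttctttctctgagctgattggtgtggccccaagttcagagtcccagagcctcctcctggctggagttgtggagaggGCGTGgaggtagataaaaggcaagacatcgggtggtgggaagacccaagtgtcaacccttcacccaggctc

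The windows of Slc5a1 and Hif1a held 3 cores each, those of Slc2a1 and Pgk1 2 each, and that of Pdk4 1. RefSeq windows were found for 33 of the 34 genes, and 30 had a core in at least 1 of their windows (90.9%), against 41.5% of all 27025 genes with a window. Some genes have several windows, and by window the shares were 79.2% of 48 against 38.6% of all 32851. The 3 genes without a core were Eno2, Pklr and Tpi1. Their mean log2 ratios were 0.02, 0.22 and 0.23, so their median of 0.22 is the value of Pklr, whose readings differed in sign by dye. The 30 genes with a core had a median of 0.14, and this difference was not tested. The core contains the CG dinucleotide, and the glucose-use genes had a median of 14 CG in their richest window against 6 over all genes. Among genes with at least 10 CG, 25 of 26 glucose-use genes had a core, against 67.4% of all such genes. A core is a match of letters and does not show binding.

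Hexokinases trap glucose inside the cell, and of the 3 only Hk2 had 6 arrays on the same side. Hk2, the inducible hexokinase, had 0.14, 0.36 and 0.33 in pairs 1, 2 and 3 and a mean of 0.28 ± 0.12 (SD, n = 3). Hk1, the housekeeping form, and Hk3, a form of white blood cells, lay at 0.03 ± 0.12 and 0.01 ± 0.06 (SD, n = 3). Hk1 had 0.06, 0.13 and -0.11 by pair, and Hk3 had -0.04, 0.00 and 0.07.

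In the upper part of glycolysis the genes did not share a side. Pfkp, the platelet-type phosphofructokinase, Tpi1, the triose phosphate isomerase, and Aldoa, the main aldolase, had means of 0.24 ± 0.22, 0.23 ± 0.18 and 0.21 ± 0.14 (SD, n = 3). In pairs 1, 2 and 3, Pfkp had -0.01, 0.35 and 0.39, Tpi1 0.02, 0.32 and 0.34, and Aldoa 0.04, 0.30 and 0.29, so each was near 0 in pair 1. Pfkl, the liver-type phosphofructokinase, had -0.01, 0.13 and 0.04 and a mean of 0.05 ± 0.07 (SD, n = 3). The muscle-type phosphofructokinase Pfkm was the lowest gene of the list, with -0.03, -0.26 and -0.52 in pairs 1, 2 and 3 and a mean of -0.27 ± 0.25 (SD, n = 3). Aldoc, the brain-type aldolase, had -0.09, -0.51 and -0.19 and a mean of -0.26 ± 0.22 (SD, n = 3), or -0.14 without pair 2. The 2 Pfkp probes disagreed, with means of 0.00 and 0.48, so its value is uncertain.

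The bifunctional Pfkfb enzymes set the level of fructose 2,6-bisphosphate, the activator of phosphofructokinase. Pfkfb4 had 0.05, 0.72 and 0.55 in pairs 1, 2 and 3, a mean of 0.44 ± 0.35 (SD, n = 3). Pfkfb2 and Pfkfb3 lay near 0, at -0.09 ± 0.11 and -0.02 ± 0.06 (SD, n = 3), with 0.01, -0.08 and -0.22 by pair for Pfkfb2 and -0.05, -0.04 and 0.05 for Pfkfb3.

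All 6 measured genes of the lower part, from glyceraldehyde phosphate to pyruvate, had positive means. Pgk1, the phosphoglycerate kinase that makes the first ATP of the pathway, gave 0.03 and 0.08 for pair 1, then 0.62 and 0.20 for pair 2 and 1.02 and 0.52 for pair 3. It was positive on 6 arrays, with values close to 0 in pair 1 and highest in pair 3, and its mean of 0.41 ± 0.36 (SD, n = 3) was 1.33-fold, or 0.59 without pair 1. Pkm, the pyruvate kinase of most tissues, had 0.12, 0.68 and 0.67 by pair and a mean of 0.49 ± 0.32 (SD, n = 3). Pgam1, the phosphoglycerate mutase, and Eno2, the neuronal enolase, had 0.09 ± 0.15 and 0.02 ± 0.05 (SD, n = 3), with 0.06, -0.04 and 0.25 by pair for Pgam1 and -0.04, 0.05 and 0.05 for Eno2. Eno1b, a gene close in sequence to Eno1 and no member of the list, was looked up after the values were seen and had 0.36 ± 0.27 (SD, n = 3). Its arrays averaged -0.03 with LynDN in Cy5 and 0.75 with LynDN in Cy3 (adjusted p of the dye term in limma = 0.0525).

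Gapdh, often taken as a constant reference gene, was read by 257 spots. Its averages were 0.08, 0.26 and 0.21 in pairs 1, 2 and 3, a mean of 0.18 ± 0.09 (SD, n = 3), and 95.3% of the spots had a positive mean over the 6 arrays. The spots repeat the same RNAs and are not replicates of mice. Arrays with LynDN in Cy5 gave 0.28, 0.47 and 0.36, against -0.12, 0.06 and 0.05 with LynDN in Cy3. Its dye term did not pass in limma (adjusted p = 0.113). Gapdh has many near-identical pseudogene copies, so its value is less certain than those of single-copy genes.

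All 4 genes of lactate handling had positive means, and Ldha and the exporter Slc16a3 had the higher ones. Ldha, the dehydrogenase subunit that favours lactate, had 0.10, 0.40 and 0.46 in pairs 1, 2 and 3 and a mean of 0.32 ± 0.19 (SD, n = 3). Slc16a3, the lactate exporter MCT4, had 0.01, 0.47 and 0.36 and a mean of 0.28 ± 0.24. Ldhb, the subunit that favours pyruvate, had 0.05, 0.27 and 0.01 and a mean of 0.11 ± 0.14. Slc16a1, the two-way carrier MCT1, had -0.02, 0.13 and 0.02 and a mean of 0.04 ± 0.08 (SD, n = 3). With LynDN in Cy5 the order of the dehydrogenases turned, with 0.15 for Ldha and 0.23 for Ldhb. Differences between these genes were not tested.

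The gate between pyruvate and mitochondria was split by isoform. Pdk4, the kinase induced by fasting and by fat use, gave 0.29 and -0.31 for pair 1, then 0.89 and 0.64 for pair 2 and 1.20 and 0.88 for pair 3. The arrays of pair 1 lay on opposite sides of 0 and the other 4 were positive, with a mean of 0.60 ± 0.55 (SD, n = 3), 1.51-fold, or 0.90 without pair 1. Pdk1, a HIF-1 target, was smaller but even across mice, at 0.22, 0.13 and 0.15 (mean 0.17 ± 0.05, SD, n = 3), while Pdk3 was negative on 6 arrays at -0.13, -0.30 and -0.28 (mean -0.24 ± 0.10, SD, n = 3). Pdk2 and Pdha1, a catalytic subunit of the dehydrogenase itself, lay at -0.07 ± 0.09 and 0.08 ± 0.07 (SD, n = 3), with 0.03, -0.14 and -0.09 by pair for Pdk2 and 0.03, 0.04 and 0.16 for Pdha1.

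The pentose phosphate branch was measured in part, since the genes of both its dehydrogenases, G6pdx and Pgd, had no row. Of its sugar-shuffling enzymes, the transaldolase Taldo1 was negative on 6 arrays with -0.20, -0.08 and -0.34 in pairs 1, 2 and 3 (mean -0.20 ± 0.13, SD, n = 3). The transketolase Tkt had -0.04, -0.09 and 0.01 (mean -0.04 ± 0.05, SD, n = 3), with 3 arrays on each side of 0.

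Pair 1 was then set against pairs 2 and 3, a contrast between mice and not between genotypes. In limma on the 6 arrays, with terms for mouse pair and dye, 3 of the 34 genes passed at an adjusted p under 0.05, against 1.48% of all rows. All 3 were lower in pair 1, with a difference of -1.35 for Slc2a1 (adjusted p = 0.00545), -1.40 for Slc5a1 (adjusted p = 0.0261) and -0.91 for Pdk4 (adjusted p = 0.0233). Pair 1 had the lowest of the 3 pair values for 22 genes, against 33.8% of all rows. The list was drawn up with these ratios known, and 25 of its 34 means were positive, against 10035 of 22879 rows. Nothing is therefore read from either count. The error of this fit is that between the arrays of a pair, so it speaks of these mice only.

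Under quantile normalization the contrast was kept by Slc2a1 (-1.03, adjusted p = 0.0351) and lost by Slc5a1 (-0.52, adjusted p = 0.286) and Pdk4 (-0.82, adjusted p = 0.0821). Without pair 3, Pdk4 missed the threshold at -0.78 (adjusted p = 0.102), and without pair 2 all 3 passed. Marker lists were set beside the same contrast. Macrophage markers had a median of -0.04 in pair 1, against 0.48 and 0.81 in pairs 2 and 3. All 7 measured markers were lowest in pair 1, and 4 passed the threshold, against 1.48% of all rows. The neutrophil markers had 0.23 in pair 1, against 0.46 and 0.43, and 1 of 9 passed. All 6 basal keratinocyte markers were lowest in pair 1, with a median of 0.23 against 0.57 and 0.48, but 0 passed. All 10 skeletal muscle and 4 red cell markers were highest in pair 1, as were 9037 of 22879 rows, and 2 and 1 passed. Of 6 markers of stressed epidermis, 5 were lowest in pair 1, and S100a9 was not. Krt6b, a keratin of wounded skin, had 3.44 in pair 1, against 5.34 and 5.68 in pairs 2 and 3 (adjusted p = 0.00385 in the same limma contrast). Sprr1b, a cornified envelope protein, had 2.72, against 3.94 and 4.37 (adjusted p = 0.00426). Which part these cells and genes, or the sex-linked difference of pair 1, had in the contrast was not tested.

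**Figure D2:**
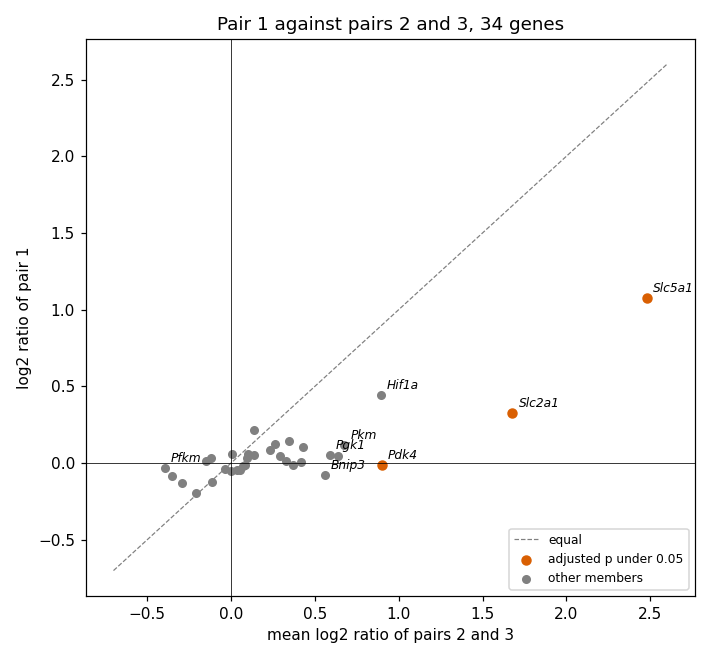
Log2 ratio of pair 1 (vertical axis) against the mean log2 ratio of pairs 2 and 3 (horizontal axis) for 34 genes, with the dashed line at equal values. Slc2a1, Slc5a1 and Pdk4, marked for an adjusted p under 0.05, lie below the line, at differences of -1.35, -1.40 and -0.91.

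The dye orientation was tested in the same model. Of the 34 genes, 0 passed at an adjusted p under 0.05 in limma, against 0.573% of all rows, and 8 had an unadjusted p under 0.05, a level reached by 21.4% of all rows. The lowest and highest dye terms were those of Slc2a3 at -0.21 (adjusted p = 0.141) and Pklr at 0.54 (adjusted p = 0.0800). Pklr, the pyruvate kinase of liver and red cells, read 0.46, 0.22 and 1.59 with LynDN in Cy5, against -0.20, -0.61 and -0.15 with LynDN in Cy3. Its pair values were 0.13, -0.20 and 0.72. Its mean of 0.22 ± 0.46 (SD, n = 3) therefore joins readings of opposite sign. In 4 of the 34 genes (Pklr, Tkt, Pfkfb2 and Slc16a1) every array of one orientation was positive and every array of the other negative, against 11.4% of all rows. The orientation means of Slc2a3 and Hk1 also lay on opposite sides of 0, with -0.33 and -0.04 for LynDN in Cy5 and 0.09 and 0.10 in Cy3. Those of Gapdh, Eno2 and Ldhb with LynDN in Cy3 were close to 0, at -0.0015, -0.0024 and -0.0083. How many of all rows had such means was not counted. Medians over the 34 genes were 0.14 with LynDN in Cy5 and 0.09 with LynDN in Cy3.

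**Figure D3:**
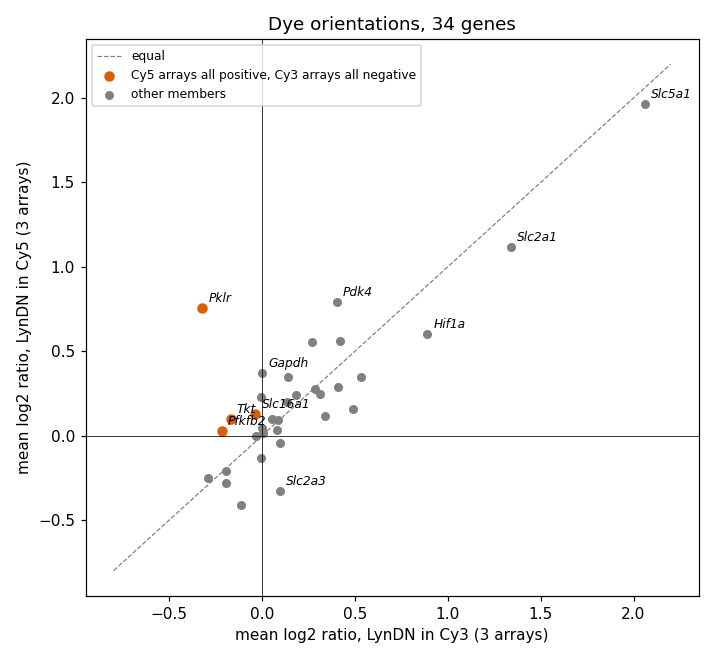
Mean log2 ratio over the 3 arrays with LynDN in Cy5 (vertical axis) against the 3 arrays with LynDN in Cy3 (horizontal axis) for 34 genes, with the dashed line at equal values. Pklr, Tkt, Slc16a1 and Pfkfb2 are marked because all their arrays with LynDN in Cy5 were positive and all with LynDN in Cy3 negative, and Pklr lies farthest from the line, at 0.76 against -0.32.

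Neighbouring pathways, listed apart from the 34 genes, had 0 members called on the pair values in limma (4 of all rows were) and 0 with the block. Over all rows, 5.92% were positive and 6.41% negative at an unadjusted p under 0.05. The other sugar and lactate carriers (14 genes) had a median of 0.01, with 1 positive and 0 negative at this level. That gene was the lactate carrier Slc16a8, at 0.36 ± 0.16 (SD, n = 3). The other genes of glycolysis (15 genes, median -0.04) had 0 positive and 3 negative at this level, among them the muscle forms Eno3 and Pgam2 at -0.36 ± 0.33 and -0.31 ± 0.29 (SD, n = 3). In the pentose phosphate branch (10 other genes, median -0.09), 1 positive and 1 negative reached it. These were H6pd, which acts in the endoplasmic reticulum, at 0.30 ± 0.14, and the lactonase Pgls at -0.38 ± 0.19 (SD, n = 3).

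Pyruvate entry (8 genes), the citric acid cycle (22 genes) and gluconeogenesis (8 genes) had medians of -0.11, -0.01 and 0.02. At an unadjusted p under 0.05 they held 1 positive and 1 negative, 0 positive and 1 negative, and 1 positive and 0 negative. The shares of all rows at this level were 5.92% positive and 6.41% negative. Pdhb, a subunit of pyruvate dehydrogenase, had -0.16 ± 0.06, and Dld, the subunit it shares with other dehydrogenases, had 0.13 ± 0.03 (SD, n = 3). Glycogen genes (15 genes) had a median of -0.08, 13 negative means and 0 genes at this level. Stbd1, which anchors glycogen to membranes, had 0.06 in pair 1, against -0.66 and -0.54 in pairs 2 and 3.

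Further genes of the hypoxia response (22 genes, median 0.03) lay on both sides, with 2 positive and 4 negative at an unadjusted p under 0.05. Of all rows, 5.92% were positive and 6.41% negative at this level. Egln3, an oxygen sensor that HIF-1 itself induces, had 0.23, 1.38 and 1.41 in pairs 1, 2 and 3 (mean 1.01 ± 0.67, SD, n = 3). Egln3 passed the contrast of pair 1 against pairs 2 and 3 (adjusted p = 0.00687). P4ha1, P4ha2 and Lox, collagen-modifying enzymes, were 3 of the 4 negative genes of this hypoxia list. They were negative on 6 of 6 arrays, as were 4.31% of all rows. Their means were -0.32 ± 0.13, -0.44 ± 0.23 and -0.39 ± 0.20 (SD, n = 3). Fibroblast markers, the cells that make most collagen, had a median of -0.11 (6 genes, from -0.32 to 0.19), and their part in this was not tested.

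Genes of glucose sensing and of growth and energy signalling (14 genes, median -0.05) held 3 positive and 0 negative at an unadjusted p under 0.05. Of all rows, 5.92% were positive and 6.41% negative at this level. Txnip, a sugar-induced inhibitor of glucose uptake, had 0.16, 0.42 and 0.51 in pairs 1, 2 and 3 (mean 0.36 ± 0.18, SD, n = 3). Its relative Arrdc4 had -0.04, 0.96 and 0.96, and passed the contrast of pair 1 against pairs 2 and 3 (adjusted p = 0.0143), on the side of Slc2a1 and Slc5a1. Myc, a growth factor-induced transcription factor, had 0.16 ± 0.08 (SD, n = 3).

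Marker lists of other cells and states are given beside these genes, and whether they varied together was not tested. Markers of stressed epidermis were positive on every array in 6 of 6 genes (median 4.15, from 0.60 to 5.54), against 3.72% of all rows. Of these genes, 3 were called on the pair values in limma and 5 with the block. Those calls were positive, against 0.0175% and 0.603% of all rows. S100a9, which sets the positive side here, is among the markers and the calls. The lists were also chosen with earlier results known, so nothing is read from these counts. Skeletal muscle markers had negative means in 9 of 10 genes (median -0.31, from -1.20 to 0.08), with 0.05 in pair 1, against -0.44 and -0.64 in pairs 2 and 3, beside the pair values of Pfkm and Pgam2. Eno3 is itself 1 of these 10 markers. Red cell markers were negative in 4 of 4 genes (median -0.52, from -0.70 to -0.10), beside Bpgm, a red cell mutase, at -0.35 ± 0.42 (SD, n = 3). Pklr, the kinase of liver and red cells, lay on the other side, at 0.22 ± 0.46 (SD, n = 3). Adipocyte markers (7 genes) had a median of -0.18, from -0.55 to 0.15, while Pdk4 was positive. Basal keratinocyte markers were positive in 6 of 6 genes (median 0.41, from 0.10 to 1.34), and macrophage markers in 7 of 7 (median 0.38, from 0.20 to 0.65), beside Slc2a1 and Hif1a. Neutrophil markers were positive in 8 of 9 genes (median 0.38, from -0.22 to 2.48). Hk3 and Slc2a3, described above as forms found in white blood cells, had means of 0.01 and -0.12. Sebocyte and endothelial markers lay near 0, with medians of 0.04 and 0.02. What part these cells had in the glucose-use ratios was not tested.

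**Figure D4:**
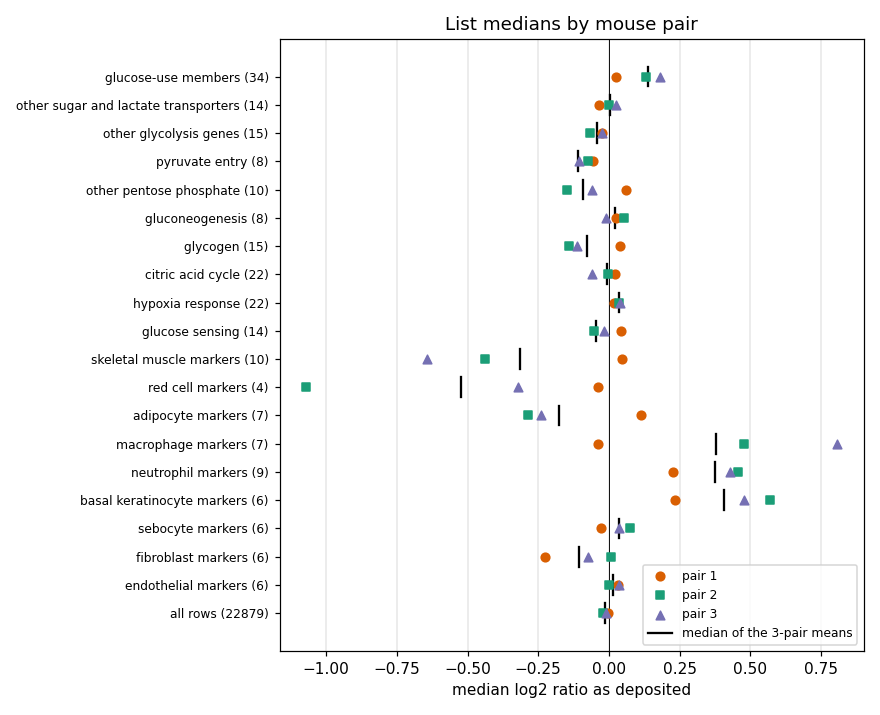
Median log2 ratio (horizontal axis) of the 34 glucose-use genes, of neighbouring pathways, of cell type markers and of all rows, with the number of measured genes in brackets, 1 point per mouse pair and a bar at the median of the 3-pair means. Skeletal muscle and red cell markers lie to the left, at -0.31 and -0.52, and macrophage, neutrophil and basal keratinocyte markers to the right, at 0.38, 0.38 and 0.41.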

How the data were processed

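The series compared skin RNA of 3 LynDN and 3 WT mice on 6 two-colour arrays, extracted with Qiagen and labelled with Ambion reagents per the labels' protocols. The deposited table holds a log2 ratio for each of 25344 probes and each array. The log base is assumed from the range of -6.34 to 6.16, and the sources used here give neither the numerator nor the background correction and normalization. All 6 columns were matched to samples, with 0 left unmatched. Without spot intensities, signal could not be set against background, and the number of arrays limits the precision.

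Probes were named through the platform annotation. Of these, 21082 had 1 symbol, 30 several and 4232 none. Probes of a symbol were averaged on each array (22879 rows), and the 2 arrays of a dye swap, which hold the same 2 RNAs per the labels, were averaged to 3 pair values. A limma test of these values against 0 (version 3.58.1, R 4.3.3) used a threshold of 0.05 after Benjamini-Hochberg adjustment. A second limma fit on the 6 arrays had terms for mouse pair and dye orientation. SDs are over pairs and do not hold the gap within a dye swap. The labels name separate mice, so this spread is biological and technical together. Pairing comes from the labels, which put both mice of a pair on the same arrays. The test against 0 and the dye term were tested on simulated data, and the contrast of pairs was not. Promoter sequences are those of RefSeq on GRCm38.p6.

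The members and all lists were chosen with earlier results of these data known. All members are given. Those picked to be given array by array had 6 arrays on the same side and a mean of at least 0.3 in size, or passed a fit with all pairs. The fits meant are those of the pair values, the block, the dye term and the contrast of pair 1. Members called only with pair 1 left out were not picked. Array values of Gapdh and Pklr were added for their dye differences after they were seen. From each other list, up to 4 genes with the smallest p could be named. Alternatives covered the block, normalization, centring, probe summary, moderation, the 1 array whose label carries another date, and each pair left out. Figures were drawn with matplotlib 3.10.9.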

Additional observations from a re-analysis of the deposited data

Results flagged for a closer look

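In 4 genes every array with LynDN in Cy5 was positive and every array with LynDN in Cy3 negative, a pattern in either direction that 11.4% of all rows showed. The dye term, which is the mean with LynDN in Cy5 minus that with LynDN in Cy3, divided by 2, was 0.54 for Pklr (adjusted p = 0.0800 in limma), 0.133 for Tkt, 0.123 for Pfkfb2 and 0.0811 for Slc16a1 (adjusted p = 0.196, 0.261 and 0.405 for the last 3). So 0 of the 4 passed that test. For these genes the genotype ratio is a balance of opposite readings.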

How the results depend on the processing

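The median ratio of the 34 genes was 0.14, ranged from 0.08 (without the array of another date) to 0.15 (without pair 2), and was 0.11 without Gapdh, each within 1 SD of the pair medians. With each probe a row it was 0.18 over 292 rows, of which 257 are Gapdh spots. Single genes kept their sign under the alternatives run for them except Hk1 without pair 2 (-0.02), Hk3 and Pklr without pair 3 (-0.02 and -0.03), Pfkfb3 without pair 1 (0.00), and Hk3 and Slc16a1 without the array of another date (-0.01 each). Pfkl, Pfkp and Gapdh have several probes and no value with each probe a row, and the probes of Pfkl (-0.02 and 0.13) and Gapdh (-0.08 to 0.47) lay on both sides of 0.

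The count of called rows, 4 for the genotype ratio, was 243 with the mouse pair as a replicate block (138 positive, 105 negative) and 72 under quantile normalization (53 positive, 19 negative), with Slc5a1 and Hif1a among them in both. It was 0 without moderation, where 1752 rows had an unadjusted p under 0.05. Leaving out a pair gave 2 (without pair 2) to 1117 rows (without pair 1). Without pair 1, 736 of the 22879 rows were called as positive and 381 as negative. Among them were 10 of the 34 genes, all positive: Slc2a1, Slc5a1, Hif1a, Bnip3, Pdk4, Pkm, Ldha, Slc16a3, Pfkfb4 and Pfkp. Since the list was drawn up with these ratios known, nothing is read from this count. The dye term called 131 rows, 6 under quantile normalization, 234 with each probe a row, and 7 to 49 with a pair left out. The contrast of pair 1 called 339 rows, 125 under quantile normalization and 182 or 216 with a pair left out. The cause of these shifts was not tested.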
